A study of Mus musculus with 4 samples.

Results

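The genes described are Rrm2, Fen1, Esco2, Dscc1, Chek1 and E2f7, which act in DNA synthesis, in the cohesion of sister chromatids and in the control of S phase. They were chosen by name from the authors' deposited table of 374 probe sets that differed between a pair of sorted testis populations. The 6 genes carried 7 of those probe sets, a pair for Rrm2 and 1 for each other gene, among 230 genes that could be named there. Names were available only for that table's probe sets, so any further probe sets of the 6 genes on the array were not read. Since that table had been selected for 2-fold differences on the same arrays, the difference between the populations is described here for these genes and not tested.

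RNA was measured on 4 one-colour arrays. The cells came from 2-week-old Sox2GFP mice, which carry a green fluorescent reporter of Sox2, on a 129SvJae/BL6 background with no treatment named in the labels. Reporter-positive cells were sorted by ckit on their surface, which binds stem cell factor, into Sox2GFP+ckit- and Sox2GFP+ckit+ cells (ckit- and ckit+ cells below). Each of the 2 biological replicates per population was a pool of 20 testes, so no array represents a single mouse. The labels describe ckit- cells as able, and ckit+ cells as unable, to rebuild damaged tubules. Every cell in both populations was reporter-positive by the gate, and reporter-negative testis cells were not analysed here.

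In S phase a cell copies its DNA once, which takes a supply of deoxynucleotides, the joining of the short Okazaki fragments of the lagging strand, and the tying together of the new sister chromatids by the cohesin ring. Kinases of the replication checkpoint slow or stop this programme when forks stall, and E2F transcription factors switch many of its genes on and off. In the testis, spermatogonia multiply by mitosis before they enter meiosis, and Kit is known as a surface marker of differentiating spermatogonia.

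On their listed probe sets all 6 genes had higher values in ckit+ than in ckit- cells. On each of these 7 probe sets both ckit+ arrays lay above both ckit- arrays. The same held for 24.5% of all 45037 non-control probe sets. The log2 difference, ckit+ minus ckit-, ranged from 0.82 for E2f7 to 1.40 for Fen1. Its standard errors were 0.16 to 0.20, from a linear model (limma, below) that shares the spread over all probe sets. The median of the difference over the 6 genes was 1.22. The median over all probe sets was -0.005. At least 2-fold higher in ckit+ cells were 6 of the 7 probe sets, against 0.675% of all. Limma, a linear model fitted over all probe sets, called 1 of the 7 (Fen1) higher in ckit+ cells at an adjusted p under 0.05, against 0.115% of all. That call was lost when any 1 of the 4 arrays was left out, while with an intensity trend 6 of the 7 were called, against 0.453% of all. These counts follow from how the genes were chosen, and nothing is read from them. In the order of all differences towards ckit+ cells, the probe sets stood between rank 71 (Fen1) and rank 700 (E2f7).

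**Figure D1:**
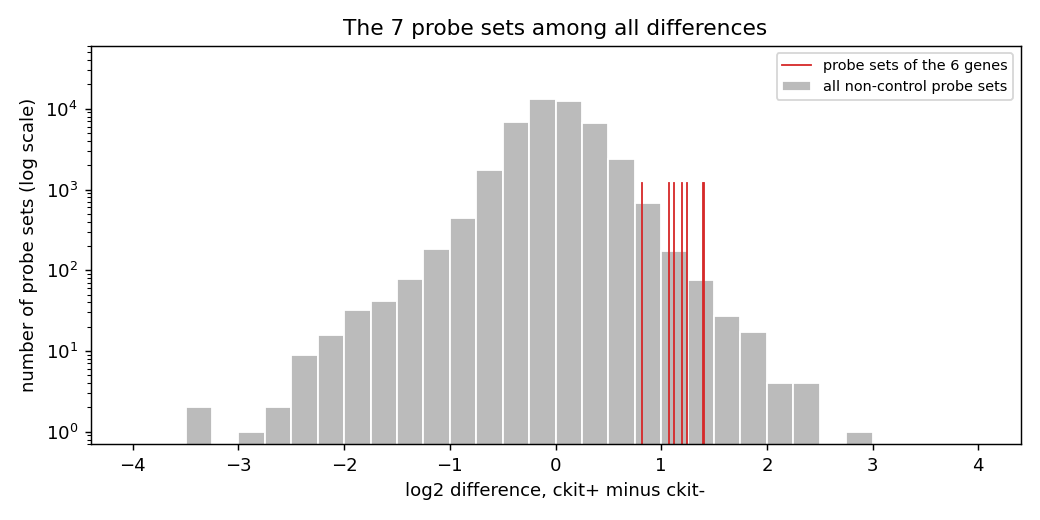
Number of non-control probe sets (log axis) by log2 difference between the populations, ckit+ minus ckit-, in bins, with the 7 probe sets of the 6 genes as red lines. The lines lie between 0.82 and 1.40, on the ckit+ side of a distribution whose median was -0.005.

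Expression values are log2 values made by the authors with RMA, and a level is given ± the SD over the 2 arrays of a population. Array medians were 6.39 to 6.42 and lower quartiles 4.93 to 5.04, so every member value lay above each array's median. The lowest member value, Fen1 on ckit- replicate 2, was barely above it, at 6.45 against a median of 6.42. No detection limit was given. In sorted pools, a larger share of cells in S phase and more transcript per cell cannot be told apart.

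Rrm2 encodes the small subunit of ribonucleotide reductase, the enzyme that makes deoxynucleotides. Its brighter probe set, 1448226_at, read 8.33 and 8.20 on the ckit- arrays and 9.31 and 9.37 on the ckit+ arrays. Its dimmer probe set, 1416120_at, read 7.45 and 7.49 on the ckit- arrays and 8.73 and 8.44 on the ckit+ arrays. The populations did not overlap on either probe set, with gaps of 0.97 and 0.94 between the lowest ckit+ and the highest ckit- array. The brighter one differed by 1.07 ± 0.16 (log2 difference and standard error, 2.10-fold) and the dimmer one by 1.12 ± 0.18 (2.17-fold). Both had passed the authors' 2-fold threshold on these arrays, so nothing is read from how close the differences are. The probe sets did not order the ckit+ arrays alike. Replicate 1 was the lower ckit+ array on the brighter probe set and the higher on the dimmer one.

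Fen1 encodes the flap endonuclease that trims Okazaki fragments before they are ligated. Its probe set, 1421731_a_at, read 6.63 and 6.45 on the ckit- arrays and 7.96 and 7.92 on the ckit+ arrays. The ckit+ arrays lay close together, only 0.04 apart, and the gap of 1.29 to the ckit- arrays was the widest of the 7 probe sets. The group means were 6.54 ± 0.13 in ckit- and 7.94 ± 0.03 in ckit+ cells (SD, n = 2), a 2.65-fold difference (log2 difference 1.40 ± 0.16).

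Both cohesion genes belong to the machinery that establishes cohesion while DNA is copied. Esco2 encodes an acetyltransferase that modifies the cohesin subunit Smc3, and Dscc1 a subunit of an alternative clamp loader that works with PCNA. Esco2 (1428304_at) read 8.07 and 7.95 on the ckit- arrays and 9.38 and 9.14 on the ckit+ arrays. Dscc1 (1452912_at) read 8.27 and 7.84 on the ckit- arrays and 9.34 and 9.16 on the ckit+ arrays. The ckit- arrays of Dscc1 were 0.43 apart, the widest spread between replicates among the 7 probe sets, yet they stayed 0.89 below the lower ckit+ array. Esco2 differed by 1.25 ± 0.17 (2.37-fold) and Dscc1 by 1.19 ± 0.20 (2.29-fold). Both came from the table selected for 2-fold differences, so nothing is read from how close these values are.

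Chek1 encodes the kinase that carries the signal of stalled replication forks to the cell cycle machinery. Its probe set, 1450677_at, read 7.84 and 7.60 on the ckit- arrays and 9.29 and 8.94 on the ckit+ arrays. The difference was 1.39 ± 0.20 (2.62-fold), and the ckit+ arrays of Chek1 were 0.34 apart.

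E2f7 encodes an atypical E2F, known as a repressor of E2F target genes that is itself switched on in S phase. Its probe set, 1437187_at, read 6.72 and 6.65 on the ckit- arrays and 7.68 and 7.32 on the ckit+ arrays. Among the 7 probe sets it had the narrowest gap between the populations (0.61) and the smallest difference, 0.82 ± 0.19 or 1.76-fold. In the authors' deposited table the same probe set stood at a ratio of 2.01, just inside their 2-fold threshold, where the lowest ratio of all listed probe sets was 2.00. The ratios of the other members in the authors' deposited table ran from 2.09 (Rrm2, 1416120_at) to 2.50 (Fen1). The log2 differences in the authors' deposited table departed from those of the value table by -0.13 to 0.19 across the 7 probe sets, most for E2f7. How the values of that table had been normalized is not given in the sources used here.

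**Figure D2:**
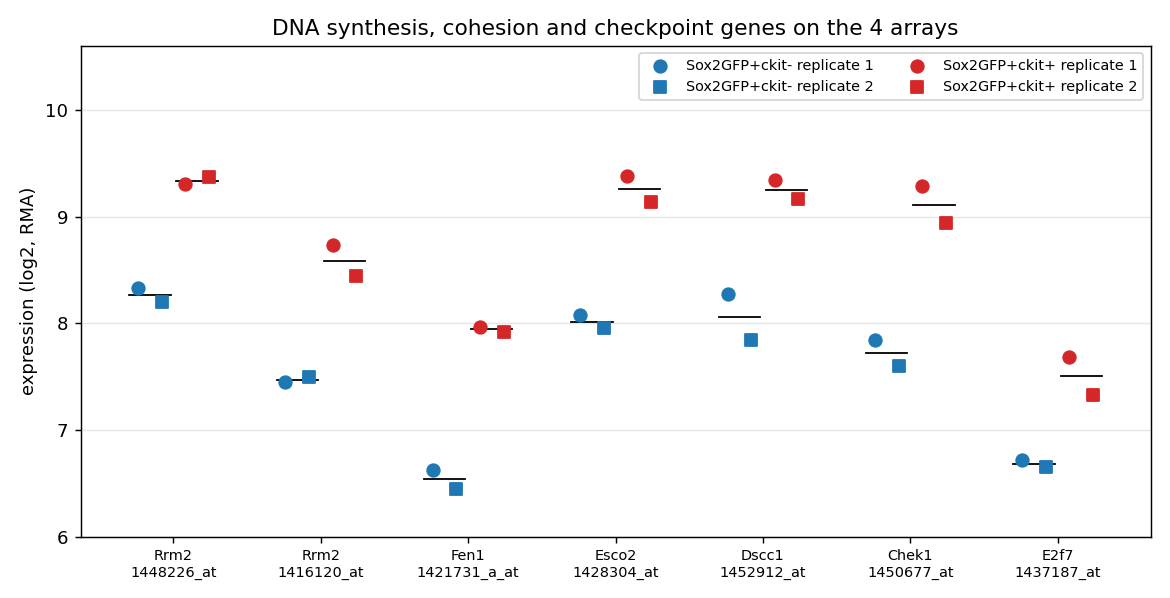
Expression (log2, RMA) of the 7 probe sets on each array, with ckit- arrays in blue, ckit+ arrays in red, circles for replicate 1, squares for replicate 2 and black lines for group means. On every probe set both red points lie above both blue points, by 0.61 (E2f7) to 1.29 (Fen1).

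Replicate arrays differed by 0.05 to 0.43 across the 7 probe sets in ckit- cells and by 0.04 to 0.36 in ckit+ cells. The median distance between replicates over all probe sets was 0.21 and 0.19. The array numbered 1 was above the array numbered 2 in both populations on 5 of the 7 probe sets, against 28.8% of all probe sets. The exceptions were the pair of Rrm2 probe sets, each in a different population. The labels do not say what the replicate numbers stand for.

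The promoters are shown because the 6 genes had higher values in the same cells. RefSeq start sites were given here for 4 of the 6 genes, in windows of 300 bases on the GRCm38.p6 build, from 250 bases before to 50 after an annotated start. No window of Esco2 or Dscc1 was used here. Words searched on both strands were TTTCCCGC, TTTCGCGC, TTTGCCGC, TTTGGCGC and GGCGGGAA for E2F sites, CCAAT for the CCAAT box, and TTTGAA and TTCGAA for the cell cycle homology region (CHR). TTTCCCGC can share letters with GGCGGGAA read on the other strand. The words were chosen after the windows had been seen. Capitals mark the words found, on the gene's own strand, in the windows of Chek1 (chr9:36726609-36726908, minus strand), E2f7 (chr10:110745189-110745488, plus strand), Rrm2 (chr12:24708004-24708303, plus strand) and the upstream one of the 2 Fen1 starts (chr19:10204344-10204643, minus strand).
Chek1: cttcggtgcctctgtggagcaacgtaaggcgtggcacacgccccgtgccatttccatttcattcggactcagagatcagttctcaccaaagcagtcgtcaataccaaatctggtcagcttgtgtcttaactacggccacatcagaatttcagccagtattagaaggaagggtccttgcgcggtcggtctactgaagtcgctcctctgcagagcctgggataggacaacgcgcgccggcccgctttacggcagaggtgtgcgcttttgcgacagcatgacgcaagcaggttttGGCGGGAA
E2f7: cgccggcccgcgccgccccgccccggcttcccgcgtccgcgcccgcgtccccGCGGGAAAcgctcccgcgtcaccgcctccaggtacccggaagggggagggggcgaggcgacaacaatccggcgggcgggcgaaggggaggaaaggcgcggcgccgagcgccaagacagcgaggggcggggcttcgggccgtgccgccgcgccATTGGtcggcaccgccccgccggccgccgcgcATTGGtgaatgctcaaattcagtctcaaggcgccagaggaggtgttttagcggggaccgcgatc
Rrm2: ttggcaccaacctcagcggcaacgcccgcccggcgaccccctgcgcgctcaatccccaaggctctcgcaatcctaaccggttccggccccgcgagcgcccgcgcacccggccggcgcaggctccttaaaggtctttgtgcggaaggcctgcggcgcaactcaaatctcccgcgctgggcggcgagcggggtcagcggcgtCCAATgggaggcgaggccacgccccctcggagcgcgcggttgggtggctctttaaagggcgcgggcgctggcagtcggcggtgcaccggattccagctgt
Fen1: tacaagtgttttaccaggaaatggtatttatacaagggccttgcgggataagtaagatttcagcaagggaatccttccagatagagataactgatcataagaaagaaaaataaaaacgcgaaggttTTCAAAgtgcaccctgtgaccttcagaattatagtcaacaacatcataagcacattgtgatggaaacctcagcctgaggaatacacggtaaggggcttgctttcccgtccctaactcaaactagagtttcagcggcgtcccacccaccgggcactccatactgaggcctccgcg

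Chek1 held an E2F word 43 to 50 bases after its start, at the very end of the window. Positions before a start are negative. E2f7 held an E2F word at -198 to -191, written GCGGGAAA on the gene's strand, and CCAAT read on the other strand at -46 to -42 and at -14 to -10. Rrm2 held CCAAT at -50 to -46 and no E2F word. Fen1 held the CHR word TTTGAA, read on the other strand, at -124 to -119 from the start shown. The second Fen1 window (chr19:10203872-10204171) held none of the words.

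An E2F word was thus present in 2 of the 4 member genes with a window, and in 4.46% of 27025 genes over all 32851 windows. CCAAT was present in 2 of the 4 and in 41.1% of all genes, and a CHR word in 1 of the 4 and in 21.7%. Because the words were chosen after the windows had been seen, the members' shares are not comparable with those of all genes. The GC content of the member windows ranged from 45.3% to 75.3%, against a median of 52.7% over all windows. Of 5 other replication genes named below, 4 had a window, and 2 of these 4 (Cdc6 and Orc1) held an E2F word too. CCAAT was present in 2 of these 4 and a CHR word in 1. Among the other 84 genes with a window that the deposited table lists as higher in ckit+ cells, these 4 included, 10 (11.9%) held an E2F word. Among those higher in ckit- cells 4 of 84 (4.76%) did. The median GC content of their windows was 65.3% and 60.0%. Nothing is read from any of these shares. The part of the words in this contrast was not tested, and a match of letters is not a binding site.

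**Figure D3:**
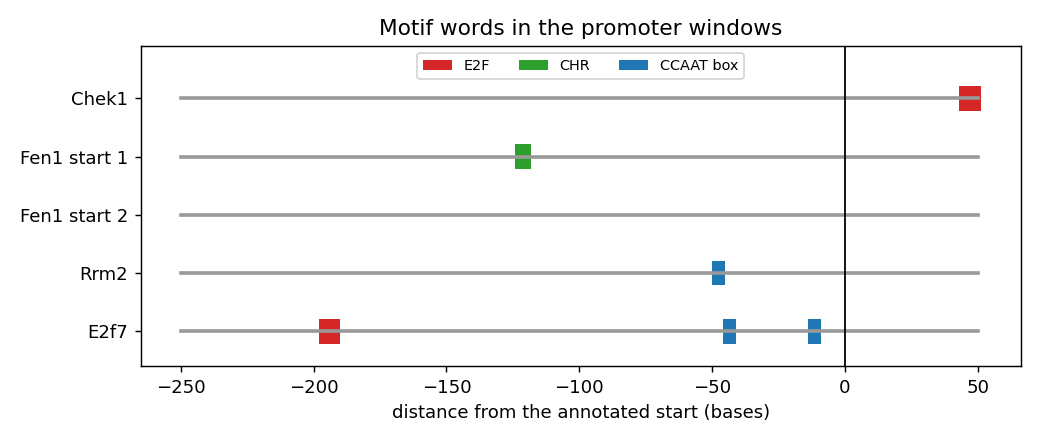
Position of motif words in the promoter windows, in bases from the annotated start, for the 4 genes with a window (Fen1 has 2 starts). E2F words (red) lie in Chek1 and E2f7, CCAAT (blue) in Rrm2 and E2f7, and a CHR word (green) in Fen1.

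The 9 lists of the cell division programme held 236 gene symbols, with a few genes entered under alternative symbols as well. Of these, 11 genes were named: the 6 described and 5 more. The 5 had higher values in ckit+ cells too. Wdhd1, a replisome protein that links the helicase to DNA polymerase alpha, was the only other one named of 37 genes listed for DNA synthesis and Okazaki fragment processing. It read 9.69 and 9.80 on the ckit- arrays and 10.95 and 10.65 on the ckit+ arrays, a difference of 1.05 ± 0.18. The remaining 4 were among 19 listed for origin licensing, the loading of the helicase before S phase. Their log2 differences were 1.33 ± 0.18 for Cdc6 and 1.32 ± 0.17 for Orc1, which load the helicase, 1.07 ± 0.18 for Gmnn, an inhibitor of loading, and 1.00 ± 0.16 for the helicase subunit Mcm2. The 4 licensing genes had a median of 1.19, inside the range of the 6 genes.

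Limma called 0 of these 5 over all probe sets at an adjusted p under 0.05 (0.115% of all were called higher in ckit+ cells). The methods' t-test, run here over all 45037 probe sets, called 0 of the 5 and 0% of all in this direction. All 5 had an unadjusted limma p under 0.05, as 8.73% of all probe sets did in this direction. They came from the same selected table, so their direction is no independent support. No gene was named from the lists for G1/S cyclins and kinases (18 genes), mitosis (37) or homologous recombination and fork repair (37). Within the lists that did name genes, Rrm2 was the only one of 16 symbols for nucleotide supply. Chek1 was the only one of 24 symbols for the checkpoint and E2f7 of 19 for the E2F family. Esco2 and Dscc1 were the only ones of 29 symbols for cohesion. This says nothing about the levels of the rest, since names were available only for probe sets the authors had listed.

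**Figure D4:**
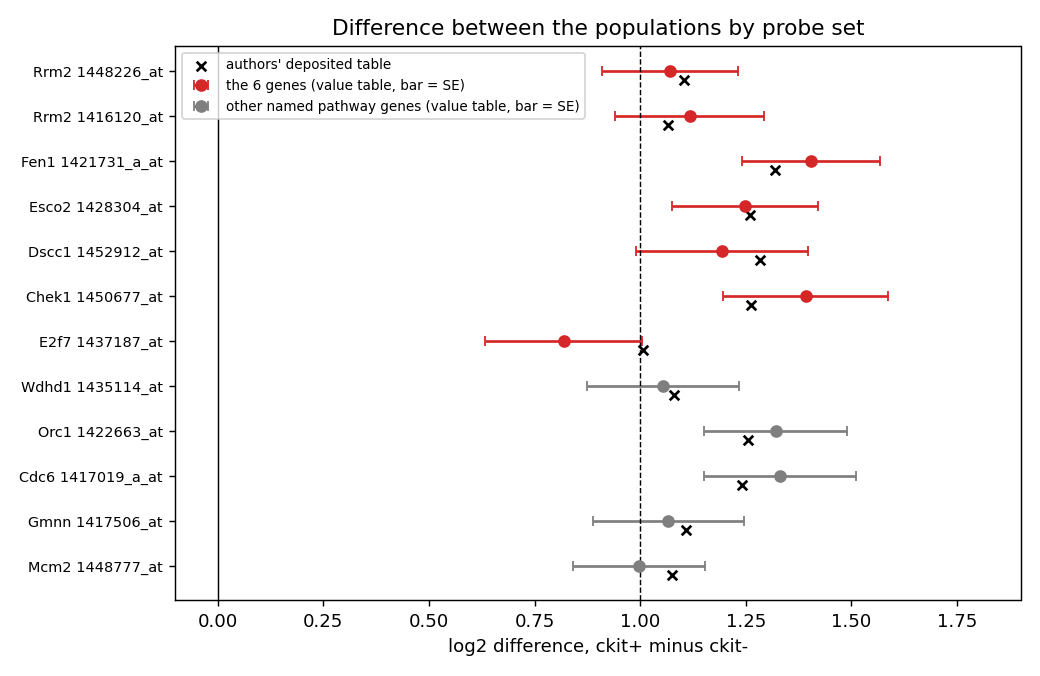
Log2 difference between the populations, ckit+ minus ckit-, with limma's standard error (n = 2 arrays per population), for the 7 probe sets (red) and the 5 other named pathway genes (grey), and the difference in the authors' deposited table (crosses). The dashed line marks 2-fold, which E2f7 (0.82) reached only in the deposited table.

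Likeness of pattern was measured as the Euclidean distance, over the 4 arrays, between a gene's values centred on its own mean and the mean centred profile of the 6 genes. That mean profile was -0.50 and -0.69 on the ckit- arrays and 0.69 and 0.50 on the ckit+ arrays. Of the other named genes, the nearest were Msantd3 at 0.012, the phosphatase gene Ptp4a3 at 0.028, the T-box factor gene Tbx1 at 0.037, the transcription factor gene Sox11 at 0.074 and the parathyroid hormone receptor gene Pth1r at 0.082. They lay closer to the mean profile than any of the 6 genes, whose own distances ran from 0.090 (Esco2) to 0.40 (E2f7). A profile over 4 arrays in 2 groups holds little more than the difference itself, and genes with no listed role in DNA synthesis shared it.

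**Figure D5:**
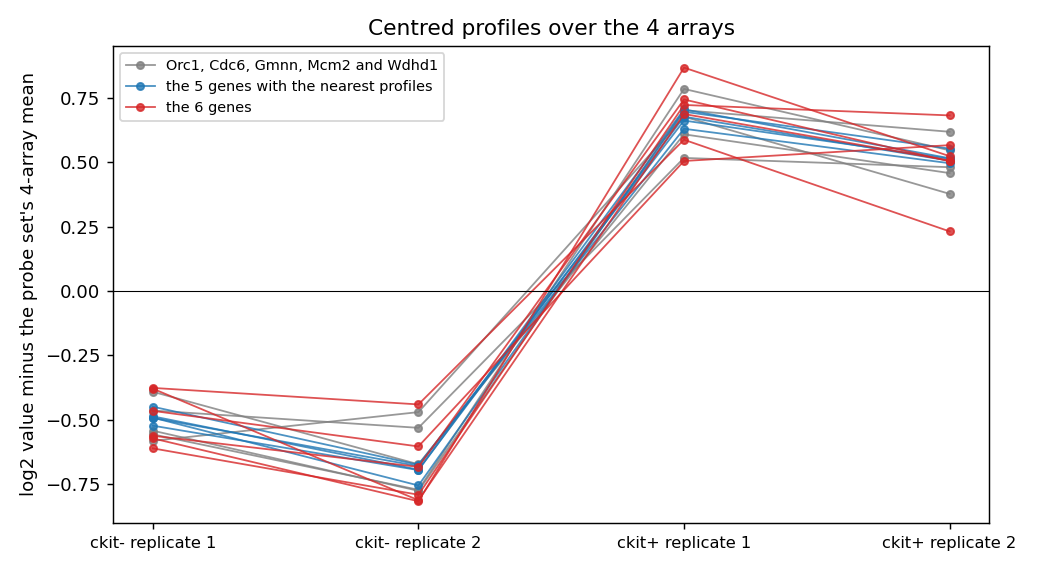
Centred log2 values on the 4 arrays, each line joining the values of 1 gene, for the 6 genes (red), the other named pathway genes (grey) and the 5 genes with the nearest profiles (blue). All lines lie below 0 on the ckit- arrays and above 0 on the ckit+ arrays.

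As a check of the labels, the brighter probe set of Kit, whose protein defined the sort, read 6.87 and 6.78 on the ckit- arrays and 9.68 and 9.62 on the ckit+ arrays. Sox2 had no named probe set and was not analysed here. Of the marker lists, 6 of 12 genes for undifferentiated spermatogonia were named and 6 of 6 were higher in ckit- cells, all called by limma (0.193% of all probe sets were called in that direction). For differentiating spermatogonia 4 of 7 were named and 4 of 4 were higher in ckit+ cells, with log2 differences from 1.10 (Dnmt3b) to 2.83 (Kit), 2 of them called (0.115% of all in that direction). These markers were named from the same selected table, so nothing is read from the counts, and each call was lost when any 1 array was left out. The only meiotic marker named of 10 was Dmc1, with a difference of 0.95 ± 0.17, and the only endothelial one of 5 was Plvap, which read 6.77 and 6.91 on the ckit- and 5.40 and 5.39 on the ckit+ arrays. These markers moved with the 6 genes or against them, and their part in the result was not tested. Markers of Sertoli, Leydig, peritubular, mast and other blood cells had no named probe set. A probe set described as Transgelin, the protein of the listed peritubular gene Tagln, was left unnamed because its description does not settle the gene. The 3′ minus 5′ signal of the GAPDH control was 2.61 to 2.68 on ckit- and 2.45 to 2.59 on ckit+ arrays (log2). That of the actin control was -0.19 to -0.11 on ckit- and -0.27 to 0.02 on ckit+ arrays. Across probe sets, which are not independent, replicate arrays correlated with r = 0.987 and 0.989, and arrays of different populations with 0.980 to 0.984.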

How the data were processed

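The value table held log2 expression values of 45101 probe sets (64 of them controls), made by the authors with RMA, per the submitters' processing notes. RMA corrects background, equalizes the arrays' distributions of probe values and summarizes probes, so a shift of all transcripts would not be visible. The summarized values were not fully equal between arrays, with upper quartiles of 7.99 to 8.05 on ckit- and 8.12 to 8.15 on ckit+ arrays. Its version and the array model are not given in the sources used here. Between 20000 and 90000 cells and 5 ng of RNA went into a sample, per the labels' protocols. The authors' deposited comparison table held log2 means and SEMs, a ratio (linear fold) and p-values, raw and adjusted. Its headers name a 2-fold threshold and a t-test adjusted by Benjamini and Hochberg for 605 tests.

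Members were taken by name, with no fold or p-value column. Names came from that table: 262 of its 374 probe sets were named (61 by RefSeq accession, 105 by symbol, 96 by full name matched by hand), giving 230 genes, matched to a RefSeq table of GRCm38.p6. The brightest probe set stands for a gene in lists. Differences were fitted with limma 3.58.1 in R 4.3.3 (lmFit, eBayes, two-sided) on all 45037 non-control probe sets, with Benjamini-Hochberg adjustment over all of them, and the fit was tested on simulated data. The 4 arrays limit the precision, and a p-value refers only to 2 pools per population. Limma draws the spread of each probe set towards a common value estimated over all probe sets. Its standard errors and p-values are therefore not measures of that probe set's own replicate spread. For Fen1 the standard error was 0.16 and the pooled SD within populations 0.092. Named in the text were the members, Kit, all named genes of the pathway and marker lists (markers as counts and examples), and the 5 genes of nearest profile. Members, lists and motif words were chosen with earlier results of these data known. The alternatives were a replicate block, an intensity trend, a filter on dim probe sets, renewed quantile normalization, median centring, leaving out each array, the methods' t-test, the deposited means and averaging the probe sets of a gene.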

Additional observations from a re-analysis of the deposited data

How the results depend on the processing

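With 2 pools per population, calls depend on how the spread is estimated. Limma called 139 of 45037 probe sets, 554 in a fit with a replicate block and 419 where the prior followed intensity. The methods' t-test, run here over all 45037 probe sets, called 1. The header of the authors' deposited table names fewer tests, so this count is not the authors' own. Of the members' 7 probe sets, 1 was called (Fen1), 6 with the block (0.564% of all in this direction) and 6 with the trend. In both, E2f7 was the one not called. The methods' t-test called 0 of the 7, and 0% of all in this direction. Of the 5 other named pathway genes, called by limma in 0 cases, 4 were called with the block and 5 with the trend (0.564% and 0.453% of all in this direction). The deviations of arrays with the same number correlated with 0.26 over all probe sets, and what a number stands for is not in the labels. With any 1 array left out limma called 0 probe sets, among them 0 members, with 4513 to 6422 at an unadjusted p under 0.05 (a lone array was taken to vary as much as the other population). Without dim probe sets limma called 195 of the 23737 left, among them 2 of the members (Fen1 and Esco2), against 0.362% called higher in ckit+ cells. With renewed quantile normalization it called 133 of 45037 and with median centring 142. In both, 1 member was called (Fen1), against 0.0977% and 0.122% of all in this direction. The causes of these gaps were not tested.

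The median difference of the 6 genes, 1.22, was 1.09 to 1.36 with 1 array left out, 1.10 after renewed quantile normalization and 1.26 in the authors' deposited table. The block and the dim filter leave a single difference as it is, and leaving out an array cannot move it past the SD within populations. Under the other 3 alternatives (quantile normalization, centring and deposited means), 19 of 21 single differences moved by less than the probe set's pooled SD within populations, and 0 changed direction. The exceptions were Rrm2 (1448226_at), 0.94 after renewed quantile normalization (SD 0.076), and E2f7, 1.01 in the authors' deposited table (SD 0.18). Renewed quantile normalization lowered all 7 differences, which then ran from 0.78 (E2f7) to 1.36 (Fen1). Median centring raised all 7 slightly, to a range of 0.83 to 1.42. E2f7 was 0.64 without ckit+ replicate 1 and 1.00 without ckit+ replicate 2.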

Other observations

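A pair of probe sets that the authors' deposited table describes only as cyclin B, a mitotic cyclin, was chosen after the values were seen, because the mitosis list had no named gene. The description does not say which cyclin B gene is meant. Both probe sets carry the same gene identifier there, so they are not independent observations. The one of them, 1419943_s_at, read 9.54 and 9.52 on the ckit- arrays and 10.72 and 10.44 on the ckit+ arrays, and the other, 1419944_at, read 9.66 and 9.64 and then 10.85 and 10.56. Both were higher in ckit+ cells, by 1.05 ± 0.17 and 1.06 ± 0.18 on the log2 scale (limma's standard error, n = 2 arrays per population), within the range of the 6 genes. They come from the same selected table, so no test was made.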
